A study of Mus musculus with 15 samples.

Results

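Cytosolic ribosomal protein genes encode the protein part of the ribosome, and 85 of them were followed here in cultured mouse astrocytes. Members were the rows of the count files named Rpl or Rps with a digit, together with Rplp0, Rplp1, Rplp2 and Rpsa, after processed pseudogenes and the ribosomal protein S6 kinases had been set aside. The name pattern took 112 of 25748 rows, of which 12 were named pseudogenes and 10 were kinases, and 85 of the other 90 had a mean CPM (the count scaled to a common library total) of at least 1 over the 15 libraries. Members were therefore selected on their name and on their mean level over all groups, and the level itself is given as a description. The nearest rows inside and outside that limit were Rps27rt at 4.85 CPM and Rpl32l at 0.487 CPM, and Rpl39l, Rps23rg1, Rpl3l and Rpl10l lay lower still, between 0.0018 and 0.258 CPM. Of the 85 genes, 51 carry large-subunit names and 34 small-subunit names, and 77 are the standard ribosomal proteins. The other 8 are paralogues or copies (Rpl22l1, Rpl36al, Rps27l, Rpl37rt, Rpl7l1, Rpl6l and Rps27rt) and Rps19bp1, whose product binds the ribosomal protein RPS19 and is not a ribosomal protein itself. The name pattern does not take Fau and Rack1, whose products are also part of the ribosome, and these are given separately.

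The 15 libraries of polyadenylated RNA came from primary astrocytes of mouse brain, in 3 groups of 5. In the Rg1 plus LPS group, ginsenoside Rg1, a saponin of ginseng, was given at 80 µM for 12 h before 1 µg/mL lipopolysaccharide (LPS) was given for 6 to 8 h. The LPS group, which carries the label SCI although it is a culture, had the same dose of LPS, a bacterial cell wall component recognised by TLR4, over the same time. No treatment is given for the control group, and the samples used here hold no culture with Rg1 alone. The series title concerns Rg1 and an inflammatory pathway below TLR4 in astrocytes. Nothing states that replicates are independent cultures or different animals, and p-values then reflect only how far these samples spread, which may be technical.

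Most ribosomal proteins are present in equal numbers in each ribosome, and their genes are among the most strongly transcribed in growing cells. Their messages are short and usually begin with an unbroken run of pyrimidines, the 5′ terminal oligopyrimidine (TOP) motif, through which mTOR and the binding protein LARP1 set how far they are translated. Extra-ribosomal roles are known for several: RPL5 and RPL11 bind MDM2 when ribosome assembly is disturbed, and RPL13A takes part in silencing inflammatory messages in human monocytic cells.

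The start of the transcript is shown for 10 members, chosen because they include the genes that changed most and least below and because they show what is shared and what is not. Each line gives 15 bases before and 15 bases from the transcript start annotated in RefSeq on GRCm38.p6, read 5′ to 3′ on the gene's own strand. Capitals mark a run of at least 5 pyrimidines that opens with C at the annotated start, and in lines with no capitals no such run begins within 10 bases of it.
Rps6 at chr4:86857353-86857382, minus strand: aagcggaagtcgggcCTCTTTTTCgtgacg
Rps21 at chr2:180257364-180257393, plus strand: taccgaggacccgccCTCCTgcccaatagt
Rps27 at chr3:90213634-90213663, minus strand: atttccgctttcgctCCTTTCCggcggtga
Rpl28 at chr7:4792950-4792979, plus strand: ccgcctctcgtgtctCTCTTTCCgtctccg
Rplp2 at chr7:141447636-141447665, plus strand: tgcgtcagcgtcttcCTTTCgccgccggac
Rps15a at chr7:118116133-118116162, minus strand: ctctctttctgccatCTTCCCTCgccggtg
Rpl41 at chr10:128549154-128549183, minus strand: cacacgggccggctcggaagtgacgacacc
Rps15 at chr10:80292416-80292445, plus strand: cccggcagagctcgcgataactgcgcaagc
Rpl4 at chr9:64173372-64173401, plus strand: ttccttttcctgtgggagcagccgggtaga
Rpl7l1 at chr17:46782642-46782671, minus strand: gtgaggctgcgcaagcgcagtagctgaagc

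Of the 85 members, 64 had an entry in the RefSeq promoter table. A pyrimidine run of that kind began exactly at an annotated start in 14 of these 64 (21.9%), against 3.01% of all 27025 genes of the table. With its first base within 10 bases of a start it was found in 37 of 64 (57.8%), against 34.4% of all genes. In the 300 bases around the start, from 250 before to 50 after and on both strands, CCGGAAG (an ETS or GABP-type core) occurred in 25 of 64 members (39.1%), against 9.93% of all genes. GGGCGG (SP1-type) occurred in 62.5% of members and 38.2% of all genes, AAGATGG (YY1-type) in 15.6% and 7.28%, and TATAAA in 10.9% and 15.7%. These matches describe the letters of the windows only, and a missing match shows only that the letters are not at the annotated start.

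Total counts ranged from 36.2 to 41.1 M in Rg1 plus LPS, from 34.2 to 41.8 M in LPS and from 34.3 to 39.0 M in control. All 10 astrocyte markers looked for were detected in every group, and their summed level ran from 6660 to 10500 CPM in Rg1 plus LPS, from 5600 to 9620 CPM in LPS and from 8920 to 11400 CPM in control. In the same order of groups, sums ran from 46.5 to 72.9, 55.4 to 108 and 50.3 to 117 CPM for the 12 microglia and macrophage markers. Tmem119 was the highest of the 12, at means of 37.4, 27.4 and 30.5 CPM. For the 5 fibroblast and mural markers sums ran from 1870 to 5420, 3890 to 5180 and 3510 to 4760 CPM. For 8 oligodendrocyte lineage markers they were 337 to 425, 328 to 362 and 313 to 385 CPM. For 6 neuron markers they were 142 to 186, 127 to 142 and 166 to 180 CPM. For 4 endothelial markers they were 85.9 to 99.8, 119 to 164 and 112 to 137 CPM, and for 2 ependymal markers 69.3 to 120, 42.9 to 77.4 and 74.4 to 97.9 CPM. Of the microglia and macrophage markers, 6 of 12 were lower in Rg1 plus LPS than in LPS and none higher. Of the astrocyte markers 4 of 10 were higher and 1 lower, where 22.2% of all genes were higher and 23.2% lower. Against control, 5 of 10 astrocyte markers were lower in Rg1 plus LPS (18.1% of all genes) and 6 of 10 in LPS (9.82%), with none higher in either. Of the microglia and macrophage markers, 4 of 12 were lower in Rg1 plus LPS than in control and none higher. No listed marker was at 0 in all libraries. In pooled RNA of this kind, fewer cells of a type and less RNA per cell cannot be told apart, and the part of other cell types in the results was not tested. The 13 mitochondrially encoded genes took 4.06 ± 0.819% of all counts in Rg1 plus LPS libraries, against 2.05 ± 0.300% in LPS and 2.66 ± 0.119% in control (SD, n = 5 each).

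Levels are given as the deposited FPKM, which divide counts by gene length and total. They can be set side by side between genes only as far as the lengths in the files hold for the messages. Rps15a, at 301 CPM and 5136 bases, thus stood at 58.6 FPKM, and Rps20, at 471 CPM and 3641 bases, at 129 FPKM. Rpl41, the smallest ribosomal protein, was the most abundant member at a mean of 1600 FPKM over the 15 libraries. Rplp1, an acidic protein of the ribosomal stalk, followed at 1497 FPKM, then Rps29 at 939, Rpl23a at 809 and Rps15 at 767 FPKM. The lowest members were Rps19bp1 at 28.0 FPKM, Rpl6l, which the annotation calls a pseudogene, at 27.3, the copy Rps27rt at 13.0, Rpl29 at 8.78 and Rpl21 at 3.50 FPKM. Rpl29 and Rpl21 are standard ribosomal proteins, and the only ones among the 5 lowest. Rpl29 shares at least 10% of its 50-base stretches with 26 other annotated genes, 24 of them pseudogenes, and Rpl21 with 14, 13 of them pseudogenes. Among the 83 members with an annotated transcript, a median of 43.9% of the 50-base stretches also occurred in another gene's transcript, and 3 members were below 5%, Rps3 (2.96%) and Rps19bp1 (0%) among them. How the authors' counting dealt with such reads is not given in the sources used here, so the level of a member with many copies is uncertain. The share of such sequence went with neither level nor change across members (Spearman rho 0.103 with FPKM and -0.038, -0.034 and -0.073 with the log2 fold changes of the 3 comparisons, n = 83).

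Together the 85 genes took a larger share of all counts in Rg1 plus LPS than in either other group. The 5 Rg1 plus LPS libraries gave 3.17, 3.29, 3.04, 3.40 and 3.71% of counts to them, the 5 LPS libraries 2.54, 2.50, 2.40, 2.47 and 2.88%, and the 5 control libraries 2.60, 2.48, 2.56, 2.55 and 2.43%. Every Rg1 plus LPS library thus lay above every other library, while LPS and control overlapped, with LPS replicate 5 the highest of those 10. Means were 3.32 ± 0.254% in Rg1 plus LPS, 2.56 ± 0.187% in LPS and 2.52 ± 0.0700% in control (SD, n = 5 each). With the mitochondrially encoded genes taken out of the total they were 3.46, 2.61 and 2.59% in the same order of groups. Both subunits showed this. Large-subunit genes took 1.96 ± 0.141% in Rg1 plus LPS, against 1.53 ± 0.108% in LPS and 1.505 ± 0.0390% in control, and small-subunit genes 1.36 ± 0.113%, against 1.03 ± 0.0790% and 1.02 ± 0.0310%. Since the members were chosen with results of these data known, no p-value is given for the sums.

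**Figure D1:**
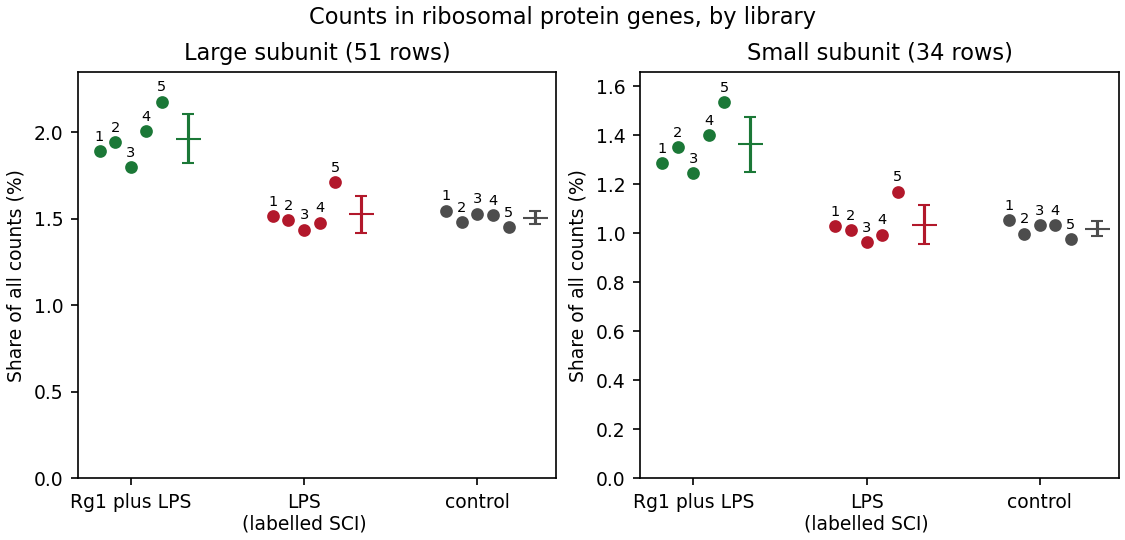
Share of all counts (%, y axis from 0) in the 51 large-subunit and the 34 small-subunit genes, by group. Points are libraries with their replicate numbers, and the bars give mean ± SD (n = 5). In both panels the 5 Rg1 plus LPS libraries lie above all LPS and control libraries, and LPS replicate 5 is the highest of its group.

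Rg1 plus LPS against LPS asks what pretreatment changed in cells that all received LPS. In the fit over all genes, 66 of the 85 members were higher in Rg1 plus LPS (77.6%, where 22.2% of the 15362 genes tested were higher), and Rpl7l1 was lower (23.2% of all genes were lower, and 45.4% were called either way). The median log2 fold change of the members was 0.29, a 1.22-fold difference, beside 0.03 over all genes tested. Higher were 37 of 51 large-subunit and 29 of 34 small-subunit genes, and fold changes ran from 0.904 (Rpl7l1) to 1.45 (Rps21). In 22 members (25.9%) every Rg1 plus LPS library lay above every LPS library, as it did in 12.4% of all genes. Calls are from edgeR's quasi-likelihood test with Benjamini-Hochberg adjustment over all genes at 0.05. With a trend on gene length removed from each library, 8 of the 85 members were higher and 9 lower (17.7% and 21.4% of all genes). The median of the 85 was then -0.06, as set out below. The call of Rpl7l1 was also lost with library size as the only scaling (adjusted p = 0.605 by edgeR).

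**Figure D2:**
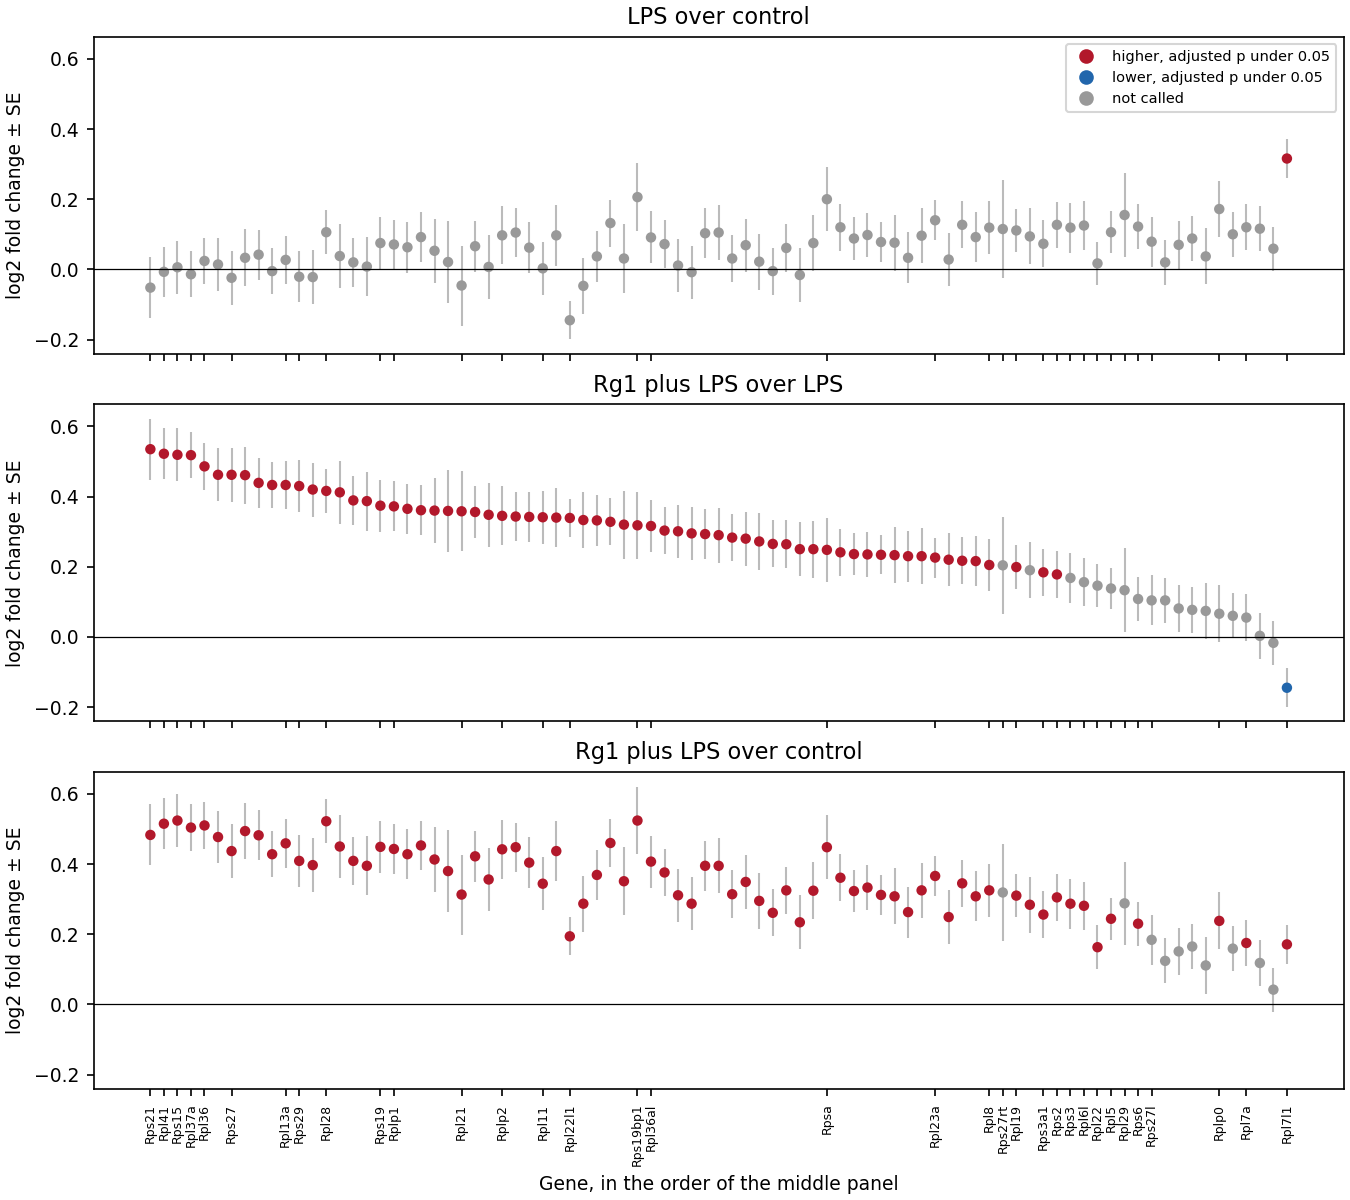
Log2 fold change ± SE (y axis) of each of the 85 members in LPS over control, Rg1 plus LPS over LPS and Rg1 plus LPS over control, with genes ordered along the x axis by the middle panel and some of them labelled. Red marks genes higher and blue genes lower at an adjusted p under 0.05. The middle panel falls from Rps21 at 0.54 to Rpl7l1 at -0.15, the top panel has 1 red point, Rpl7l1, and the bottom panel has 75.

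The 5 highest changes came from both subunits, and with the length trend removed only Rps15 and Rpl36 of these 5 were called. Rps21, a small-subunit protein whose message opens with the short run shown above, was counted at 265, 232, 223, 299 and 295 CPM in the 5 Rg1 plus LPS libraries and at 165, 176, 181, 169.7 and 215 CPM in the 5 LPS libraries. The groups did not overlap, and the log2 fold change was 0.54 ± 0.087 (SE, adjusted p = 0.000112 by edgeR). Rpl41, the smallest protein of the ribosome, had 830.5, 857, 807, 982 and 1000.1 CPM in Rg1 plus LPS and 583, 636, 619.9, 577 and 702 CPM in LPS (0.52 ± 0.072, adjusted p = 2.35e-05 by edgeR). Rps15, which sits near the decoding site and is needed for export of the small subunit from the nucleus, had 527, 604, 557, 639 and 692 CPM in Rg1 plus LPS and 414, 432, 414, 373 and 475 CPM in LPS (0.52 ± 0.076, adjusted p = 3.93e-05 by edgeR). In all 3 genes LPS replicate 5 was the highest LPS library and still lay below the lowest Rg1 plus LPS library. Rpl37a (381 ± 39.6 against 266 ± 11.7 CPM) and Rpl36 (259 ± 21.6 against 185 ± 15.6 CPM), both of the large subunit, completed the 5 highest, at log2 fold changes of 0.52 and 0.49.

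Differences between members in size of change were not tested. Of the 3 stalk proteins, which recruit the elongation factors, Rplp1 averaged 835 ± 72.6 CPM in Rg1 plus LPS and 645 ± 49.5 CPM in LPS (log2 fold change 0.37, adjusted p = 0.000451 by edgeR), and Rplp2 had 276 to 389 CPM in Rg1 plus LPS and 233 to 300.01 CPM in LPS (0.34, adjusted p = 0.003). Rplp0, which anchors them to the ribosome, averaged 842 ± 85.8 in Rg1 plus LPS and 804 ± 87.5 CPM in LPS and was not called (0.07 ± 0.081, adjusted p = 0.534). With the length trend removed none of these 3 was called. Rpsa, a small-subunit protein also known as a laminin receptor, was higher (0.25 ± 0.091, adjusted p = 0.0344), or at 0.08 and not called with the trend removed. Rps3, at the mRNA entry channel, was not called (0.17 ± 0.071, adjusted p = 0.064). Rps6, the small-subunit protein that S6 kinases phosphorylate, averaged 408 ± 27.4 CPM in Rg1 plus LPS and 379 ± 28.2 CPM in LPS and was not called either (0.11 ± 0.063, adjusted p = 0.174).

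Among members with known extra-ribosomal roles, Rpl11, which binds MDM2, was higher (452 ± 46.0 CPM in Rg1 plus LPS, 357 ± 36.9 CPM in LPS, log2 fold change 0.34, adjusted p = 0.00166 by edgeR). Rpl5, its partner in that role, had 428, 431, 404, 419 and 466 CPM in Rg1 plus LPS and 398, 371, 358, 382 and 442 CPM in LPS. The 2 groups of Rpl5 overlapped through LPS replicate 5, and the gene was not called (0.14 ± 0.059, adjusted p = 0.0684). Rpl13a, the interferon-responsive silencer of inflammatory messages in human monocytic cells, was higher, with 846, 905, 848, 957 and 1055 CPM in Rg1 plus LPS against 657, 671, 697, 632 and 759 CPM in LPS. Its groups did not overlap (0.43 ± 0.069, adjusted p = 9.9e-05). Rps19, the gene most often mutated in Diamond-Blackfan anaemia, was higher as well (0.37 ± 0.074, adjusted p = 0.000634). Of Rpl11, Rpl5, Rpl13a and Rps19, only Rpl13a was called with the length trend removed (0.15, adjusted p = 0.0292). Rps19bp1, whose product binds RPS19, averaged 27.8 ± 3.51 CPM in Rg1 plus LPS and 22.3 ± 2.29 CPM in LPS (0.32 ± 0.096, adjusted p = 0.0125). With the length trend removed it was not called.

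The smallest called increases were in Rpl8 (log2 fold change 0.21), Rpl19 (0.20), Rps3a1 (0.18) and Rps2 (0.18), in each of which the 2 groups overlapped. Rpl8, Rps3a1 and Rps2, together with Rpsa, lost their call when any of several single libraries was left out, LPS replicates 2 and 4 among them for all 4 genes. The 18 members that were not called had values from -0.02 (Rpl4, whose product lines the exit tunnel) to 0.20 (Rps27rt). Rpl4 had 755, 812, 729, 727 and 882 CPM in Rg1 plus LPS and 798, 762, 763, 758 and 870.0 CPM in LPS, groups that covered nearly the same range.

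**Figure D3:**
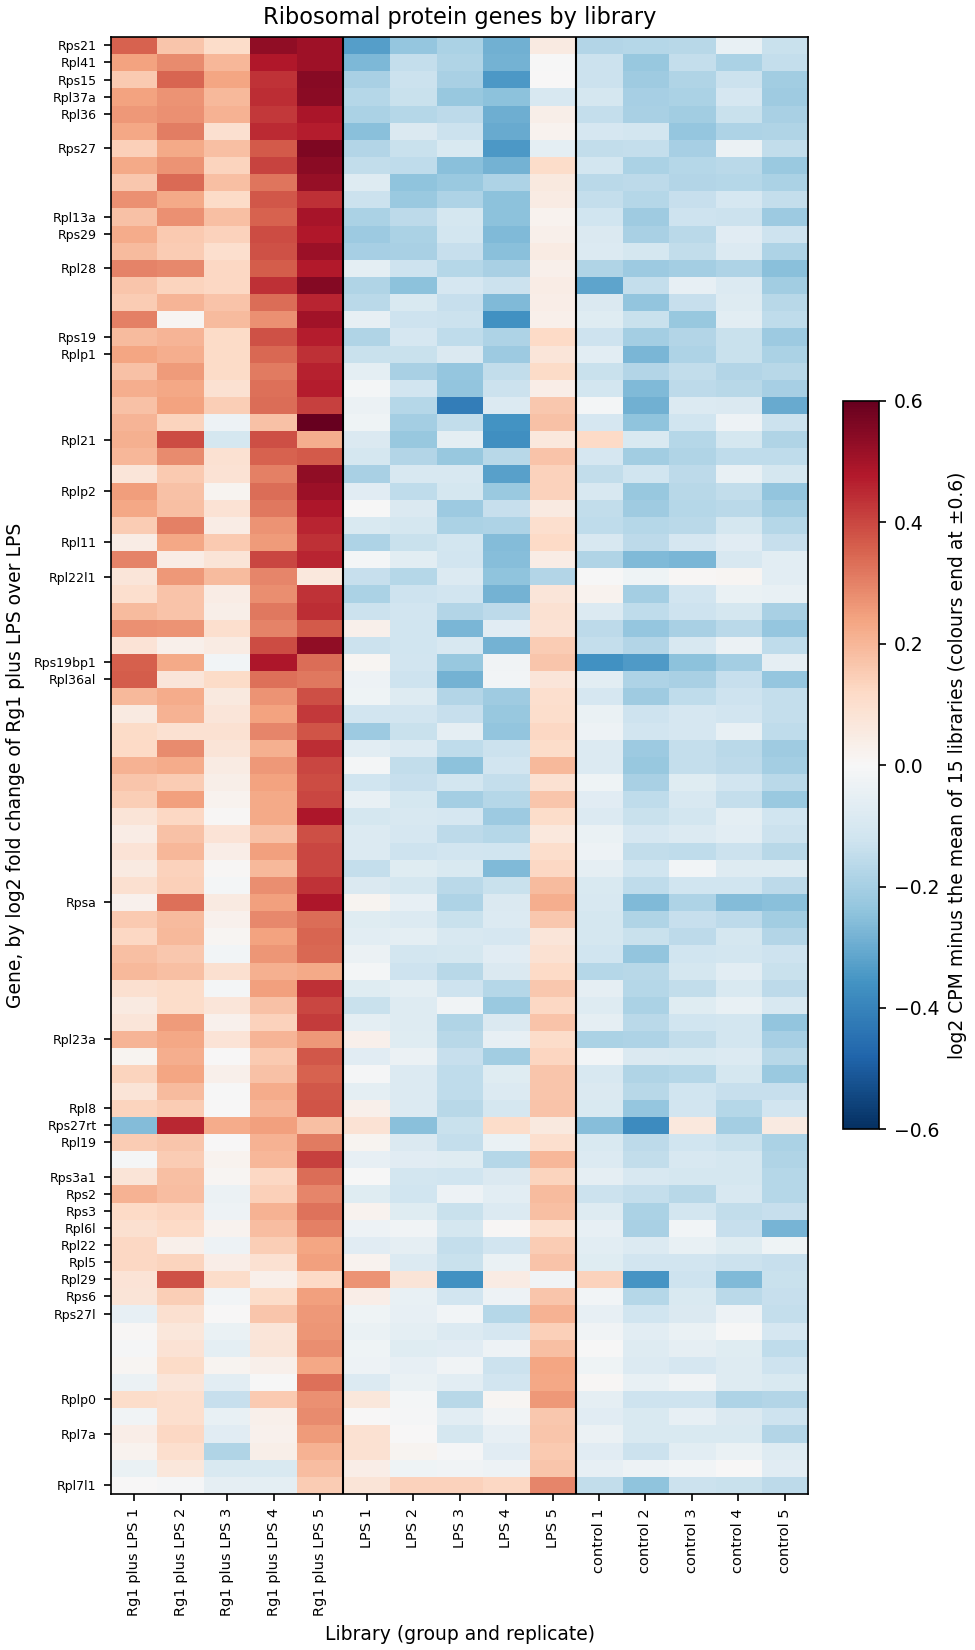
Log2 CPM of each of the 85 members (rows, ordered by the log2 fold change of Rg1 plus LPS over LPS, some of them labelled) in each library (columns), minus the gene's mean over the 15 libraries. Red is above and blue below the mean, and colours end at ±0.6. Most rows are red across the Rg1 plus LPS libraries, strongest in replicates 4 and 5, LPS replicate 5 is paler than its group or red, and Rpl7l1 in the bottom row is red in LPS.

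Against untreated cells the members were also higher in Rg1 plus LPS, and the calls were more even. There 75 of 85 were higher (88.2%, beside 18.8% of all genes), at a median log2 fold change of 0.34 (1.27-fold), beside 0.01 over all genes. No member was called lower by edgeR, DESeq2 or limma voom, and none had a negative fold change with an unadjusted p under 0.05, where 18.1% of all genes were called lower. Higher were 43 of 51 large-subunit and 32 of 34 small-subunit genes. In 73 members (85.9%) the groups did not overlap, against 13.2% of all genes. Control libraries were closer together than LPS libraries: Rpl41 had 895 ± 89.5 CPM in Rg1 plus LPS and 627 ± 17.5 CPM in control, and the 5 control values lay between 601 and 643 CPM. Both comparisons use the same 5 Rg1 plus LPS libraries, so they are not independent. The count also fell, to 19 members, with the trend on gene length removed.

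The 5 highest changes against control were in Rps15 (604 ± 65.3 CPM in Rg1 plus LPS, 420.0 ± 12.2 CPM in control, log2 fold change 0.52), Rps19bp1 (27.8 ± 3.51 and 19.3 ± 1.69 CPM, 0.52), Rpl28 (418 ± 37.0 and 291 ± 5.66 CPM, 0.52), Rpl41 (0.52) and Rpl36 (0.51). The lowest called were Rps6 (0.23), Rpl22l1 (0.19), Rpl7a (0.18), Rpl7l1 (0.17) and Rpl22 (0.16). Rpl7a and Rpl22 stood near the threshold, with adjusted p of 0.0476 and 0.0489 by edgeR, and each was lost in 11 of the 15 fits that left out a library. The 10 members that were not called were Rps27rt, Rpl29, Rps27l, Rpl27, Rpl6, Rpl10, Rpl7, Rpl15, Rpl3 and Rpl4, all with positive values, from 0.04 (Rpl4) to 0.32 (Rps27rt).

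LPS on its own gave few calls among the members. Only Rpl7l1 was called higher, 1 of 85 (1.18%, beside 13.8% of all genes), though 17 were with the length trend removed, and none was called lower (9.82% of all genes) by edgeR or limma voom, while DESeq2 called 1 lower. At an unadjusted p under 0.05, 4 members were higher and 1 lower. In either direction these are 5 of 85, beside 5614 of the 15362 genes tested. The median log2 fold change was 0.07, a 1.05-fold difference, and it came mostly from 1 library: without LPS replicate 5 the median was 0.01. Wholly above control in LPS were 3 members, Rpl7l1, Rpl24 and Rpl17 (3.5% of members, 12.8% of all genes), and 1 wholly below, Rpl22l1 (1.18%, 7.64% of all genes). In simulated counts for LPS against control, the fit recovered 23 of 100 genes made different by 0.32 (log2) and 89 of 100 made 2-fold different. Those genes were drawn from the whole table above a low level, and few genes were changed. Most members have far higher counts, so this recovery does not say how small a change could be detected among them. Without LPS replicate 3 the count of members higher in LPS was 3, Rpl23a among them.

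Rpl7l1, a paralogue of Rpl7 that in human cells is found in assembling large subunits in the nucleolus, was the only member called in LPS over control and the only one called lower in Rg1 plus LPS over LPS, before any length trend was removed. It was counted at 89.9, 93.7, 93.7, 92.7 and 104 CPM in LPS and at 76.9, 71.9, 77.9, 77.7 and 76.4 CPM in control, with no overlap (log2 fold change 0.32 ± 0.055, adjusted p = 0.00045 by edgeR). In Rg1 plus LPS it had 85.4, 84.7, 82.1, 81.8 and 94.8 CPM, which lay above control (0.17 ± 0.055, adjusted p = 0.0218) and overlapped LPS through replicate 5. Its difference from LPS was -0.15 ± 0.055 (adjusted p = 0.0399), and that call was lost in 9 of the 15 fits that left out a library. The increase in LPS over control was kept in all 15 of them.

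The other paralogues can be set beside their standard partners. Rpl22l1, which Rpl22 protein represses in mouse cells, had 99.0, 113, 108, 116 and 98.6 CPM in Rg1 plus LPS, 85.6, 83.8, 89.1, 79.8 and 83.6 CPM in LPS and 94.0, 92.5, 94.8, 95.2 and 90.2 CPM in control. The 3 groups did not overlap, in the order Rg1 plus LPS, control, LPS. Rg1 plus LPS was higher than LPS (log2 fold change 0.34 ± 0.054, adjusted p = 8.95e-05 by edgeR) and than control (0.19 ± 0.054, adjusted p = 0.00965), and the lower level in LPS than in control was not called (-0.15 ± 0.054, adjusted p = 0.061). With the length trend removed, Rpl22l1 in Rg1 plus LPS was at -0.07 against LPS and -0.12 against control, and neither was called. Rpl22 itself averaged 272 ± 19.4 CPM in Rg1 plus LPS, 245 ± 20.5 in LPS and 243 ± 3.76 CPM in control.

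Rps27, a zinc-binding small-subunit protein, was higher in Rg1 plus LPS (280.0 ± 34.3 CPM) than in LPS (203 ± 15.1 CPM), 0.46 on the log2 scale (adjusted p = 0.000136 by edgeR). Rps27l, its p53-induced paralogue, was not called in that comparison (169 ± 14.7 and 158 ± 15.5 CPM, 0.10, adjusted p = 0.245). The lengths in the files are 346 bases for Rps27 and 2748 for Rps27l. With the length trend removed they were at -0.02 and 0.03, and neither was called. Rps27 shares 98.65% of its 50-base stretches with other annotated genes, 4 of which hold at least 10% of them, so reads could be divided between them. Rps27rt had 3.99 to 6.55 CPM in Rg1 plus LPS, 4.01 to 5.17 CPM in LPS and 3.69 to 5.00 CPM in control, with no call in any comparison. Rpl36al, the copy of Rpl36a, was higher in Rg1 plus LPS than in LPS (66.7 ± 6.13 against 53.5 ± 4.87 CPM, 0.32, adjusted p = 0.00235). With the length trend removed it was at -0.09 and not called.

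Gene length went with the size of the changes. The members are short, with a median length in the files of 821 bases (322 to 5136), against 3672 bases for the other genes tested, and 79 of 85 fell within the shortest 25% of all genes. Among the members, the log2 fold change of Rg1 plus LPS over LPS fell with length (Spearman rho -0.457, n = 85), and among the other genes tested it did so too (-0.328). For Rg1 plus LPS over control the values were -0.401 and -0.307, and for LPS over control 0.263 for members, with the weakest relation of the 3 in other genes. These correlations are across genes of the same libraries, which are not independent replicates.

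Short genes that do not encode ribosomal proteins were also higher in Rg1 plus LPS than in LPS. Of genes of at most 500 bases, the 123 other genes had a median log2 fold change of 0.43 in Rg1 plus LPS over LPS, beside 0.35 for the 14 members of that length. Between 500 and 750 bases the 300 other genes had a median of 0.31 and the 23 members 0.28, and between 750 and 1000 bases the 407 other genes had 0.32 and the 18 members 0.26. The 30 longer members lay mostly between 1000 and 2000 bases, where 3 narrower classes in order of length gave medians of 0.29 for 6 members and 0.25 for 510 other genes, 0.24 for 7 members and 0.21 for 604 other genes (to 1500 bases), and 0.22 for 9 members and 0.18 for 1345 other genes (to 2000 bases). Against control, the members' median lay above that of other genes in these classes: 0.43 against 0.29 up to 500 bases, 0.35 against 0.25 up to 750, 0.32 against 0.25 up to 1000, and 0.36 against 0.20, 0.26 against 0.17 and 0.31 against 0.12 in the 3 narrower classes. These medians are a description, with no test.

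**Figure D4:**
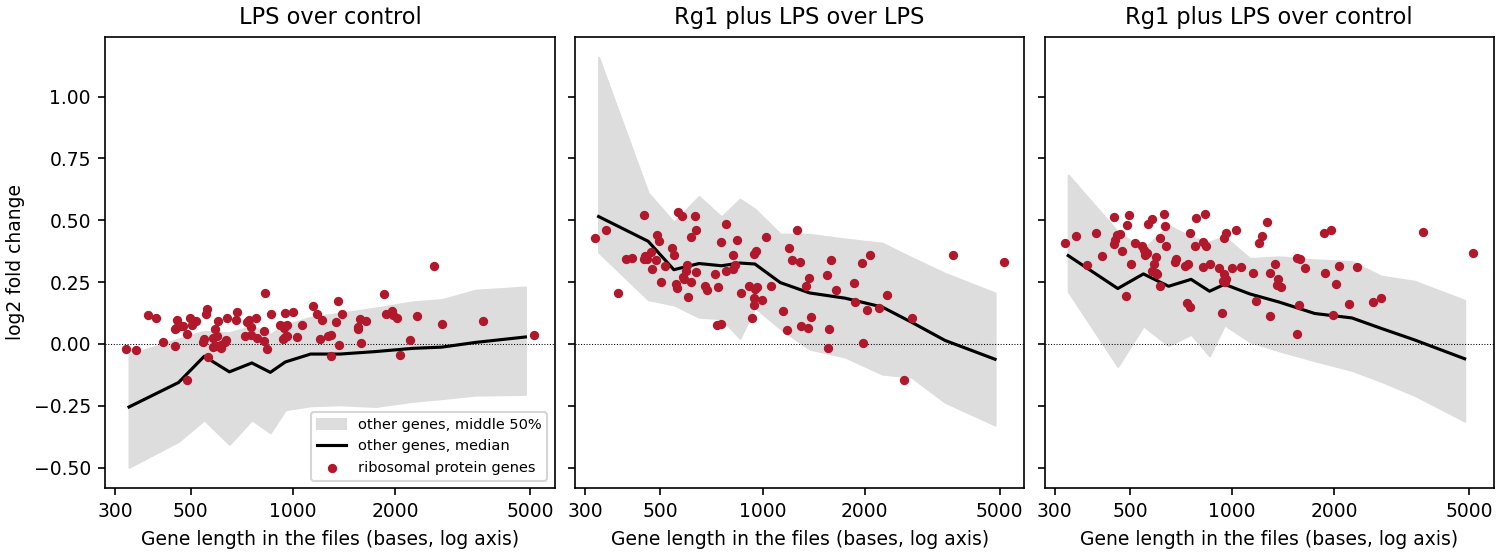
Log2 fold change (y axis) against gene length in bases (log x axis) for the 85 members (red points) in the 3 comparisons. The black line is the median of all other genes in classes of length and the grey band their middle 50%. In the middle panel line and points fall together with length, and in the right panel most points lie above the line.

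Values by library were as follows. Relative to the mean of 15 libraries, the members' mean log2 CPM lay between 0.06 and 0.39 in Rg1 plus LPS, between -0.16 and 0.11 in LPS and between -0.17 and -0.09 in control. The median of the shortest 25% of other genes lay between 0.07 and 0.21 in Rg1 plus LPS, between -0.12 and -0.04 in LPS and between -0.07 and -0.02 in control. In Rg1 plus LPS replicate 5, members and other short genes were both at their highest. In LPS replicate 5 they lay apart, with members at 0.11 and other short genes at -0.04, and Rg1 plus LPS replicate 3 had the lowest member value of its group (0.06) beside 0.13 for other short genes. The correlation of a gene's deviation with its length was negative in all 5 Rg1 plus LPS libraries (-0.327 to -0.143) and positive in the 10 others (0.0300 to 0.239). Measures of RNA integrity for single libraries were not analysed here, and the part of RNA quality or library preparation in this trend was not tested.

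With the length trend of each library removed before the fit, most of the 85 members were not called in Rg1 plus LPS against LPS. The higher and the lower members were each a smaller share of the 85 than the share of all genes given beside them. The 8 members that were higher were Rps15a, Rps20, Rps12, Rps24, Rpl36, Rpl13a, Rps15 and Rpl31 (17.7% of all genes were higher in that fit). Among the 9 that were lower were Rpl27, Rpl10, Rpl7l1, Rpl4, Rpl7a, Rpl7, Rpl23a and Rpl6 (21.4% of all genes were lower). These genes, like Rps15a and Rps20 next, were singled out after their values were seen. Rps20, of the small-subunit head, had 540.2, 545, 494, 583 and 643 CPM in Rg1 plus LPS and 459.9, 429, 394, 425 and 477 CPM in LPS, and its log2 fold change was 0.36 in both fits (adjusted p = 0.000584, and 0.000555 with the trend removed, by edgeR). Rps15a was at 0.33, and at 0.43 with the trend removed (adjusted p = 0.00133 and 0.000307). At 3641 and 5136 bases, these are the longest members in the files, and their FPKM (129 for Rps20, 58.6 for Rps15a) were divided by those lengths. The trend was removed at those lengths too. Their values and calls with the trend removed, here and against control, therefore hold only as far as those lengths hold for the messages.

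Against control, 19 members stayed higher with the trend removed (15.2% of all genes), at a median of 0.09. They included Rps20 and Rps15a (0.44 each), Rps24, Rpsa, Rps12, Rpl36, Rpl13a, Rps15, Rps19, Rpl11, Rpl28 and Rpl41. LPS against control gave 17 members higher (13.6% of all genes) at a median of 0.13, among them Rpl7l1 (0.32), Rpl23a (0.23), Rpl28 (0.20) and Rps6 (0.16). No member was called lower in either of these 2 fits by edgeR, where 15.7% and 10.2% of all genes were lower, and other tools were not run on them.

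**Figure D5:**
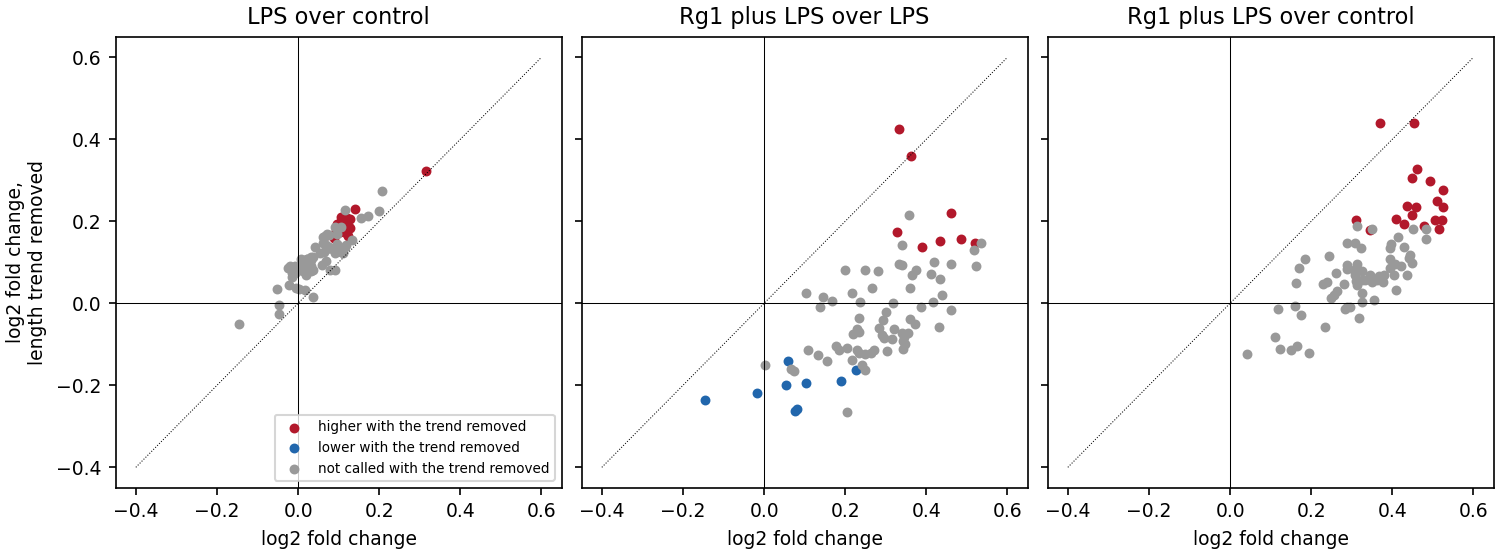
Log2 fold change of each of the 85 members with the length trend of each library removed (y axis) against the value without that step (x axis) in the 3 comparisons, with the line of equal values. Red and blue mark members higher and lower after removal. In the middle panel the cloud drops from positive values to both sides of 0, with 8 red and 9 blue points.

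Other housekeeping gene families were measured in the same fit. Of 78 mitochondrial ribosomal protein genes, whose products translate the mitochondrial genome, 56 were higher in Rg1 plus LPS than in LPS at a median log2 fold change of 0.29, and 59 were higher than in control, at 0.29. Of 37 complex I subunit genes of the respiratory chain, 31 were higher than in LPS (median 0.33) and 22 higher than in control (0.22). For the 78 these are 71.8% and 75.6%, and for the 37 they are 83.8% and 59.5%. Of all genes, 22.2% were higher than in LPS and 18.8% higher than in control. With the length trend removed, 25 of the 78 (32.1%) were higher and 2 lower than in LPS (median 0.09). Of the 37, 4 (10.8%) were higher and 7 (18.9%) lower (-0.01), below the 17.7% higher and 21.4% lower of all genes in that fit. Ribosomal genes outside the name pattern were measured as well. Fau, which encodes a small-subunit protein fused to a ubiquitin-like protein, had 301, 284, 268, 319 and 327 CPM in Rg1 plus LPS, against 229.5, 239, 255, 235 and 261 CPM in LPS. The groups did not overlap (0.30 ± 0.061, adjusted p = 0.000831 by edgeR), and with the length trend removed the value was -0.04 and not called. Rack1, the scaffold on the small-subunit head, was not called (0.08 ± 0.080, adjusted p = 0.467).

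Genes of the machinery that builds ribosomes were also counted. Of 32 ribosome biogenesis genes, 14 (43.8%, beside 13.8% of all genes) were higher in LPS than in control, at a median log2 fold change of 0.21. None was lower by edgeR (9.82% of all genes were), also at an unadjusted p under 0.05. In Rg1 plus LPS, 14 of 32 (43.8%, beside 23.2% of all genes) were lower than in LPS (median -0.16). None was higher (22.2% of all genes were), also unadjusted. Both counts use the same 5 LPS libraries. Against control, 5 of 32 were higher (15.6%) and 7 lower (21.9%) in Rg1 plus LPS, beside 18.8% and 18.1% of all genes. With the length trend removed 4 were higher and 3 lower there, beside 15.2% and 15.7% of all genes. Rrs1, an assembly factor of the large subunit, had 28.99, 29.5, 27.7, 29.8 and 28.8 CPM in Rg1 plus LPS, 50.96, 47.8, 55.0, 49.3 and 54.2 CPM in LPS and 36.8, 33.9, 40.7, 36.8 and 43.7 CPM in control. The 3 groups did not overlap. Its log2 fold change was -0.83 ± 0.068 in Rg1 plus LPS over LPS (adjusted p = 6.17e-08 by edgeR) and 0.42 ± 0.068 in LPS over control (adjusted p = 0.000208). Mdn1, the large ATPase that strips assembly factors off the pre-ribosome, and Utp20, of the small-subunit processome, were also lower in Rg1 plus LPS than in LPS, by -0.91 and -0.58. Nop56, a core protein of box C/D particles that guide rRNA methylation, was higher than control in both LPS (0.50) and Rg1 plus LPS (0.49). With the length trend removed, 18 of 32 were lower and 1 higher in Rg1 plus LPS against LPS, and 14 of 32 were still higher in LPS against control. Of all genes in those fits, 21.4% were lower and 17.7% higher against LPS, and 13.6% were higher in LPS against control.

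Among 11 tested genes of RNA polymerase I, which transcribes rRNA, Ubtf (log2 fold change 0.26), Rrn3 (0.19), Polr1a (0.36) and Taf1d (0.53) were higher in LPS than in control and Taf1b (-0.28) was lower. In Rg1 plus LPS against LPS, Rrn3 (-0.23) and Ubtf (-0.19) were lower and Polr1e (0.31) was higher. Against control, 4 genes (36.4%, beside 18.8% of all genes) were higher in Rg1 plus LPS, Polr1d (0.33) among them. Of all genes, 13.8% were higher and 9.82% lower in LPS than in control. In Rg1 plus LPS against LPS, 22.2% were higher and 23.2% lower. With the length trend removed, Ubtf against LPS was at 0.03 and not called, and Taf1d in LPS over control (adjusted p = 0.0536 by edgeR) and Polr1d against control (0.0514) lost their calls.

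Regulators of TOP messages and of ribosomal gene transcription were lower in Rg1 plus LPS than in LPS in 10 of 24 cases (41.7%) and higher in 4 (16.7%). Of all genes, 23.2% were lower and 22.2% higher. With the length trend removed 9 were lower and 4 higher, where 21.4% of all genes were lower and 17.7% higher. Larp1, the binding protein of TOP messages, had 140.5, 105, 100.4, 118 and 104 CPM in Rg1 plus LPS, 181, 179, 178, 183 and 188 CPM in LPS and 140.1, 135, 135, 129 and 134 CPM in control. It was lower in Rg1 plus LPS than in LPS (log2 fold change -0.68 ± 0.076, adjusted p = 2.26e-06 by edgeR) and higher in LPS than in control (0.43 ± 0.075, adjusted p = 0.000457). Mtor, the kinase upstream of it, was at -0.54 and 0.26 in the same 2 comparisons, both called. Rictor, of the other mTOR complex, was lower in Rg1 plus LPS than in LPS (79.7 ± 14.3 against 188 ± 16.1 CPM, -1.24 ± 0.102, adjusted p = 6.17e-08). Sesn1 and Sesn2, stress-induced inhibitors of mTORC1, were higher (0.48 and 0.47), as was the S6 kinase gene Rps6kb2 (0.33), which with the length trend removed was at 0.16 and not called (adjusted p = 0.137 by edgeR). Myc, a transcription factor known to drive ribosomal protein genes, averaged 29.7 ± 1.88 CPM in Rg1 plus LPS and 46.6 ± 7.92 CPM in LPS (-0.65 ± 0.121, adjusted p = 0.000374). Larp1, Mtor and Rictor are long genes, of 7190, 8595 and 9490 bases, and with the length trend removed their values against LPS were -0.51, -0.34 and -1.03, all still called lower.

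Translation factors whose messages are also of the TOP class were counted separately. Of 18, 4 were higher in Rg1 plus LPS than in LPS (22.2%, as in all genes), among them Naca (0.19), Eif3k (0.21) and Tpt1 (0.17), and Pabpc1, the poly(A)-binding protein, was lower (-0.37 ± 0.075, adjusted p = 0.000736 by edgeR). Their median was 0.03, against 0.29 for the members. With the length trend removed 1 was higher and 7 lower, where 17.7% of all genes were higher and 21.4% lower. Against control 7 were higher (38.9%, beside 18.8% of all genes), at a median of 0.10. With the length trend removed 2 were higher, at a median of -0.04 (15.2% of all genes were higher).

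Within groups the members rose and fell together from library to library. With group means taken out, a member correlated with the mean of the other members at a median r of 0.904 over 15 libraries, and 48 of 85 were above 0.9, up to 0.987 for Rpl32. Only Rps27rt (0.138), Rpl29 (0.101) and Rpl22l1 (-0.112) were below 0.5. All libraries share their depth scaling, so these values are a description. The same correlation was not computed for other genes, and the length trend was not removed. The values therefore do not show a trait particular to the members. Of the 4224 other genes with at least 50 CPM, the 5 whose log2 CPM was most like the summed members over the 15 libraries included Mydgf (r = 0.974), Swi5 (0.973), Snrpd2 (0.957) and Hmg20b (0.949). Swi5, for example, averaged 162 CPM in Rg1 plus LPS, 142 CPM in LPS and 135 CPM in control, with a length of 780 bases.

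Members with a pyrimidine run at the annotated start changed by amounts that covered the same range as the others. In Rg1 plus LPS over LPS, 11 of the 14 with such a run were higher, with a median log2 fold change of 0.35 (0.00 for Rpl15 to 0.54 for Rps21), and 39 of the 50 without it, with a median of 0.28 (-0.15 for Rpl7l1 to 0.52 for Rpl41). Of the starts printed above, Rps21, Rps27 and Rpl28 carry a run and were among the larger changes, Rps6 carries one and was not called, and Rpl41 and Rps15, without one at the annotated start, were among the 5 highest. Against control the medians were 0.40 with a run and 0.34 without. The members lie on many chromosomes, with no more than 14 on any, chromosome 7.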

How the data were processed

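TRIzol-extracted RNA went into VAHTS Universal V6 libraries, per the labels' protocols. The submitters' processing notes name GRCm38 and mm10. Aligner, counting program, annotation and use of strand: not given in the sources used here. The authors deposited raw counts for 25748 gene symbols per library, and FPKM that equalled count over gene length and total count to a relative deviation of 7.22e-10. In each deposited FPKM file 37 symbols were damaged, none of a member. Groups follow the sample titles and the design text, since the treatment field numbers the third group from Rg1 to Rg5.

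Counts were fitted in R 4.3.3 with edgeR 4.0.16: genes kept by filterByExpr (15362, all 85 members among them), TMM scaling, all 15 libraries in a robust quasi-likelihood fit with group as the only term, two-sided F-tests and Benjamini-Hochberg adjustment over all genes, called at 0.05. CPM are normalised to the TMM-scaled library size and summarised per group of 5 by mean ± SD, and fold changes are log2 ± SE. Gene lengths were derived from the FPKM. For the length trend, each library's log2 CPM deviation (prior count 2) was smoothed on log2 length by loess (span 0.5) and entered as an offset. Alternatives used DESeq2 1.42.0, limma 3.58.1, other scalings, filters and designs, and left out each library. Shared 50-base stretches used GENCODE vM21 transcripts and gene models. Chromosome positions, the pseudogene label of Rpl6l and start windows came from RefSeq. The fit was tested on simulated counts: of 100 genes made 2-fold different it recovered 89 for LPS over control, 90 for pretreated over LPS and 97 for pretreated over control, and of 100 made different by 0.32 (log2) 23, 19 and 21.

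Members, gene lists and tests were chosen with earlier results of these data known. Always named were the stalk proteins, Rpsa, Rps6, Rps3, Rpl13a, Rpl5, Rpl11, Rps19, Rpl22, Rps27, the paralogues and Rps19bp1. Further named were the 5 highest and 5 lowest called members of each comparison and by level, up to 3 called genes per direction of each accompanying list, and the 5 genes most alike. Other genes were named after their values were seen. No 2 libraries of a group held the same counts within sampling noise. A few genes are not reported here by name.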

Additional observations from a re-analysis of the deposited data

Results flagged for a closer look

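A library far from the other 4 was sought in 108 sets of 5 libraries. The sets covered 34 named members, the summed share of the members and the mitochondrially encoded share. In all, 8 were found, where chance gives about 1 in 20 independent sets. Members rose and fell together within groups (median r of 0.904), so the sets are not independent and the 8 cannot be read against that rate. Of the 8, 4 lay in LPS replicate 5, the library with the largest share of ribosomal protein counts in its group. There Rpl22 had 280.5 CPM (228.8 to 243.4 in the other LPS libraries), Rpl7l1 104.2 CPM (89.89 to 93.7), Rps19 416.9 CPM (337.5 to 358.3) and Rps2 105.9 CPM (85.49 to 90.75). In Rg1 plus LPS, Rpl7l1 had 94.78 CPM in replicate 5 (81.77 to 85.42 in the others), and Rpl29 had 12.98 CPM in replicate 2 (10.19 to 10.82). In control, Rpl21 had 7.75 CPM in replicate 1 (6.307 to 6.694), and Rpl7l1 was low at 71.92 CPM in replicate 2 (76.35 to 77.9). The part of any single cause was not tested.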

How the results depend on the processing

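Counts of higher members against LPS (66) and control (75) stayed within 1.5 times under other scalings, filters, DESeq2, limma voom, fits of 2 groups and the replicate block. With library size only, the median against LPS was 0.4, but the median of all genes shifted by 0.11 in that setting and the members stood 0.26 above it, as in the reported fit; of all calls, 65% were then higher against LPS (48.9% as reported), 63.9% against control (50.9%) and 45.9% for LPS over control (58.5%). One member was lower in LPS than in control (0 as reported) with library size only, a mean of at least 1 CPM, DESeq2 and fits of 2 groups, and none was lower in Rg1 plus LPS than in LPS (1 as reported) with library size only, no filter, fits of 2 groups and standard proteins only; with standard proteins only none was higher in LPS than in control.

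Removing the length trend changed most. Members higher in LPS over control numbered 17, or 24 with the replicate block as well and 19 with the trend fitted without the members (chosen after seeing the data). Against LPS, 8 were higher and 9 lower (8 and 13 with the block, 6 and 9 without members), and the median became -0.059 (-0.06 and -0.065). Against control, 19 were higher at a median of 0.086 (22 at 0.085, and 20 at 0.087). In these 3 settings, in the same order, genes higher against LPS turned to log2 fold changes of -0.108, -0.107 and -0.111 for Rpl8; -0.113, -0.113 and -0.115 for Rps3a1; -0.104, -0.106 and -0.106 for Rps2; -0.0498, -0.0512 and -0.056 for Rplp1; -0.0825, -0.0846 and -0.0888 for Rplp2; -0.0175, -0.0185 and -0.0253 for Rps27. Likewise Rpl22l1 turned to -0.0727, -0.0765 and -0.0789, Rpl36al to -0.0883, -0.0898 and -0.0943, Rps29 to -0.0591, -0.0601 and -0.0676, and Rpl23a to -0.163, -0.163 and -0.169, where it was called lower. Rps19bp1 turned to -0.000111 with the block and -0.00302 without members. Against control Rpl22l1 turned to -0.122, -0.127 and -0.112 and Rpl7a to -0.029, -0.0318 and -0.0249. The cause was not tested.

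Leaving out each library in turn gave 1 to 3 members higher and 0 to 1 lower in LPS over control (median 0.01 to 0.086), 58 to 75 higher and 0 to 1 lower against LPS (0.254 to 0.344), and 69 to 80 higher and 0 lower against control (0.311 to 0.388). Of named members called against LPS, 18 of 23 kept their call in every such fit, and 20 of 25 against control. With replicate 5 of both LPS-exposed groups left out (chosen after seeing the data), the medians were 0.007, 0.313 and 0.306.

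The replicate block gave 70 higher and 1 lower against LPS, 75 higher against control and 1 higher in LPS over control. Same-numbered libraries of Rg1 plus LPS and LPS deviated together unevenly (correlations 0.168, 0.05, 0.423, 0.366 and 0.424), and 3 of 5 matched their own number best, so the numbers were not taken as pairs.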
